A study of Mus musculus and Rattus norvegicus with 12 samples.

Results

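The genes described here are the Wnt ligands, their Frizzled receptors and LRP co-receptors, the secreted Wnt antagonists, the R-spondins, and 5 genes of intracellular feedback and Wnt-driven transcription. They were chosen by symbol alone, and 50 rows of the 54087 in the mouse count table and 50 of the 28909 in the rat count table matched. RNA sequencing was done on 12 libraries in 4 groups of 3. The flox group was the heart apex of mice with floxed Jmjd4 alleles (Jmjd4f/f) and no Cre, and the cKO group was the apex of MCM+ Jmjd4f/f mice, in which the myh6 promoter drives Cre in cardiomyocytes. Both were given tamoxifen and were collected at day 14. The second system was NRVCs, ventricular cardiomyocytes cultured from newborn wild-type Sprague-Dawley rats and treated for 48 h with a control siRNA (siNC) or an siRNA against Jmjd4 (siJmjd4). Because the flox mice carried no Cre, effects of Cre and of the loss of Jmjd4 cannot be told apart. The labels do not say whether NRVC replicates came from separate isolations, so the p-values there measure the spread between these libraries, which may be technical.

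Wnt proteins are secreted, lipid-modified ligands that bind Frizzled receptors on the cell surface. With an LRP co-receptor they stabilise beta-catenin, which joins TCF/LEF factors in the nucleus, and without it they act through the planar polarity and calcium branches. Secreted frizzled-related proteins (Sfrp genes and Frzb) and Wif1 bind Wnt ligands outside the cell, Dkk1 and its close relatives act on the LRP co-receptors, and R-spondins keep receptors at the surface. In the adult heart the pathway is known to be quiet and to be re-engaged in injury and scar formation.

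The libraries held 57174654 to 82187009 counts. The labels give cardiomyocytes as the cell type of every sample, while the mouse material was whole apex tissue: summed over 10 cardiomyocyte markers it held 52320 to 77230 CPM (counts scaled to the library's size) in flox and 39630 to 41990 in cKO, beside 1565 to 2605 and 4434 to 8085 CPM over 10 fibroblast markers. In siNC cultures the 10 fibroblast markers summed to 36560 to 44450 CPM. The cardiomyocyte list had rows for 9 of its 10 markers in the rat and summed to 19980 to 28620 CPM. These sums are not divided by transcript length, so they do not give the share of either cell type. Jmjd4 itself was at 19.0, 8.04 and 16.9 CPM in flox replicates 1 to 3 and at 8.95, 4.92 and 9.63 CPM in cKO, an overlap of the groups (log2 fold change -0.90, adjusted p = 0.397 by edgeR's quasi-likelihood test with Benjamini-Hochberg adjustment). In NRVCs it was at 3.46, 4.40 and 0.982 CPM with siNC and at 3.58, 3.43 and 3.53 CPM with siJmjd4. The mean of the target was thus not lower in the libraries labelled siJmjd4 (log2 fold change 0.25, adjusted p = 0.770 by the same test). Without siNC replicate 3 the log2 fold change was -0.16 (adjusted p = 0.685, same test), so no drop of the target passed the test. One control library of each system stood apart. In flox replicate 3 the median of 34 Wnt genes was 0.98 log2 units below the other flox libraries, with a range of -3.36 to 1.19 and lower values for longer transcripts, and in siNC replicate 3 the median of 36 was 0.28 log2 units below. The fold changes of the genes most affected are given with and without them.

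In cKO hearts a secreted antagonist (Frzb), a receptor (Fzd2) and an intracellular inhibitor (Nkd2) rose 17.6-, 7.92- and 15.6-fold over flox. Of the 36 Wnt genes with enough counts to be tested, 3 were higher in cKO than in flox at an adjusted p under 0.05, these 3, and none was lower. Over all 18094 genes tested, 0.37% were called higher and 0.508% in either direction, against 8.33% of the Wnt genes. When flox replicate 3 was left out, 7 of 38 Wnt genes were called higher, adding Sfrp1, Sfrp2, Dkk3 and Fzd1, and 1, Wnt5a, was called lower, against 4.26% of all genes higher and 2.93% lower. Over both directions this was 7.19% of all genes. Other tests on all 6 libraries called 8 with DESeq2's Wald test (9.66% of all genes), 8 with an offset for transcript length (8.44%) and 12 with limma voom (21.3%), while scaling to total counts called none (0.111%, 11 Wnt genes at an unadjusted p under 0.05), nor did a fit with the replicate number as a block (0 of all 18094 genes, 9 Wnt genes at an unadjusted p under 0.05). With edgeR, 9 were called without flox replicate 3 and cKO replicate 2 (19.1%). The calls are few and depend on which libraries enter: when any library but flox replicate 3 was left out, edgeR's quasi-likelihood test called 0 of all genes in the table, and so none of the 36 to 38 Wnt genes, of which 8 to 11 had an unadjusted p under 0.05. The fold changes of Frzb, Fzd2 and Nkd2 moved little in them. Without each library in turn, Frzb ranged from 3.91 to 4.33, Fzd2 from 2.86 to 3.07 and Nkd2 from 3.50 to 4.18 on the log2 scale.

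Frzb, also called Sfrp3, encodes a secreted frizzled-related protein that binds Wnt ligands. Its level was 3.42, 3.90 and 3.53 CPM in flox replicates 1 to 3 and 46.2, 62.1 and 82.8 CPM in cKO replicates 1 to 3. All 3 cKO hearts were far above all 3 flox hearts, and flox replicate 3 was level with the other flox libraries. The fold change was 17.6 (log2 4.14, SE 0.36, adjusted p = 0.0255 by edgeR's quasi-likelihood test). The gene lies on the minus strand at chr2:80411970-80447625 in GRCm38, and no other annotated gene overlaps it.

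Sfrp2 and Sfrp1, which encode 2 further frizzled-related proteins, showed folds of 30.0 and 13.9 but missed the threshold in the full comparison. Sfrp2 was at 3.09, 3.23 and 0.932 CPM in flox and at 33.3, 53.8 and 132 CPM in cKO, so the groups were wide apart and the cKO hearts also differed among themselves. This gave 4.91 on the log2 scale (SE 0.77, adjusted p = 0.0574), or 4.52 without flox replicate 3 (adjusted p = 0.0135, edgeR's quasi-likelihood test in both). Sfrp1 was at 13.2, 14.4 and 6.38 CPM in flox and at 116, 87.5 and 270 CPM in cKO. The lowest cKO heart was above the highest flox heart, and cKO replicate 3 held the highest value of both genes. This gave 3.799 on the log2 scale (SE 0.60, adjusted p = 0.0574), or 3.51 without flox replicate 3 (adjusted p = 0.0158, edgeR). Sfrp2 (chr3:83766321-83774316, plus strand) shares its locus with an antisense gene, Gm26771, and since no source used here states whether the counting used strand, reads of the 2 cannot be told apart. Sfrp1 (chr8:23411502-23449632, plus strand) overlaps no other annotated gene.

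Dkk3, the most divergent member of the Dickkopf family, was at 3.37, 3.72 and 0.452 CPM in flox and at 35.8, 38.9 and 46.6 CPM in cKO. The cKO hearts lay close together, and the low flox value came from replicate 3. By edgeR's quasi-likelihood test it was higher by 4.00 on the log2 scale (SE 0.75, adjusted p = 0.0811), or by 3.51 (adjusted p = 0.00262) without that library. Of the other antagonists edgeR called none, with or without flox replicate 3. Wif1, the Wnt inhibitory factor, was at 0.790 to 1.95 CPM in flox and 0.534 to 1.46 CPM in cKO. Sfrp5 was the one secreted antagonist with a low p and a fold change below 0: it was at 0.585, 1.297 and 0.226 CPM in flox and at 0.252, 0.153 and 0.0559 CPM in cKO, with overlap (log2 fold change -2.19, adjusted p = 0.325, edgeR). Sfrp4 and Dkk2 stayed under 0.4 CPM in every heart, Dkk2 without overlap at 0 to 0.104 CPM in flox and 0.140 to 0.279 CPM in cKO, Dkk1 had counts in 1 flox library alone, and Dkk4 had none.

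**Figure D1:**
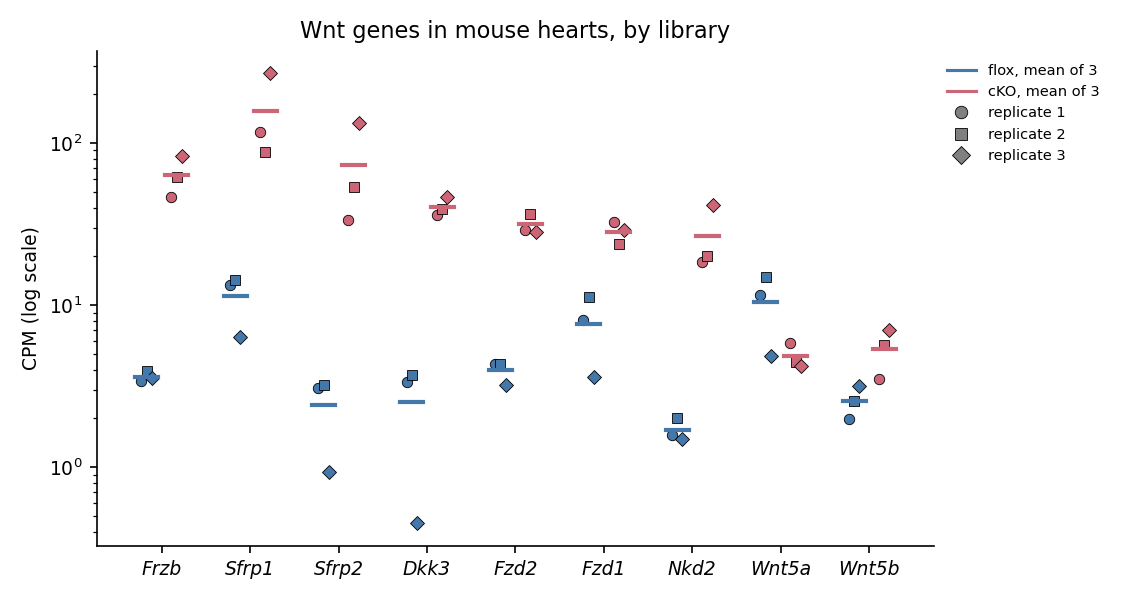
Level of 9 Wnt genes in each mouse heart library (CPM, log axis), with flox in blue and cKO in red, 1 symbol per replicate and a line at the mean of 3. Frzb, Sfrp1, Sfrp2, Dkk3, Fzd2, Fzd1 and Nkd2 are higher in all 3 cKO hearts, Wnt5a overlaps only through flox replicate 3 (diamond), and that library is also the lowest for Sfrp2 and Dkk3.

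Among the receptors, Fzd2 and Fzd1 stood apart from the rest. Fzd2, a Frizzled that binds Wnt5a among other ligands, was at 4.36, 4.32 and 3.22 CPM in flox and at 29.3, 36.7 and 28.5 CPM in cKO. Both groups were tight, and the fold was 7.92 (log2 2.99, SE 0.31, adjusted p = 0.0269, edgeR's quasi-likelihood test). Fzd1 was at 8.14, 11.2 and 3.61 CPM in flox and at 32.5, 23.8 and 29.1 CPM in cKO, again without overlap. Its log2 fold change of 1.89 (SE 0.45, adjusted p = 0.120) became 1.56 (adjusted p = 0.0180, edgeR) without flox replicate 3. Fzd2 lies at chr11:102604396-102608058 on the plus strand and Fzd1 at chr5:4753839-4758035 on the minus strand, each clear of other annotated genes.

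The more abundant receptors gave no such difference. Fzd4, a receptor of Wnt ligands and of norrin in blood vessels, was at 82.04, 87.6 and 26.4 CPM in flox and at 72.8, 47.5 and 68.2 CPM in cKO. The co-receptor Lrp6 was at 78.6, 80.1 and 24.0 CPM against 73.2, 36.8 and 76.0 CPM, and its relative Lrp5 at 71.6, 63.1 and 9.60 CPM against 70.8, 52.8 and 80.8 CPM. In all 3 genes the groups overlapped, and flox replicate 3 was the lowest of the 6 libraries. Fzd6 was the exception to that pattern, at 27.9 to 35.7 CPM in flox and 25.9 to 30.7 CPM in cKO, with its highest value in flox replicate 3. Fzd3, Fzd5, Fzd7, Fzd8 and Fzd9 lay between 0.565 and 10.6 CPM and none was called, although Fzd8 was without overlap at 3.84 to 7.04 CPM in flox and 7.75 to 9.44 CPM in cKO. Fzd10 had counts in 2 of 6 libraries and was not tested.

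None of the 11 tested ligands was called by edgeR in the full comparison. In that test 3 had an unadjusted p under 0.05 (27.3%, against 15.0% of all genes). In all, 4 were higher in all cKO hearts than in any flox heart (36.4%, against 14.9% of all genes). Of these 4, Wnt9b and Wnt10b were over the filter level in all cKO libraries but not in all flox libraries, which favours higher values. Wnt5a, the ligand best known for signalling without beta-catenin, had the highest mean CPM of the ligands in flox, though not in cKO, and not per kilobase of transcript in either group. It was at 11.5, 15.0 and 4.86 CPM in flox against 5.81, 4.46 and 4.24 CPM in cKO. The cKO hearts were below flox replicates 1 and 2 and around flox replicate 3. This gave -1.11 on the log2 scale (SE 0.45, adjusted p = 0.316), or -1.45 without flox replicate 3 (adjusted p = 0.0219, edgeR's quasi-likelihood test), the one Wnt gene called lower in that fit. An antisense gene, Gm2670, overlaps Wnt5a (chr14:28504750-28527448, plus strand).

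Wnt5b, its closest relative, was higher in each cKO heart, at 3.51, 5.67 and 6.99 CPM against 1.98, 2.56 and 3.16 CPM in flox, a gap that did not pass the test (log2 fold change 1.07, SE 0.38, adjusted p = 0.258, edgeR). Wnt9b was at 0.509, 0.467 and 0.113 CPM in flox and at 1.35, 2.00 and 0.984 CPM in cKO, also apart but not called by edgeR (log2 fold change 1.96, adjusted p = 0.240), while DESeq2's Wald test called it (adjusted p = 0.0428). Wnt10b was at 0.153, 0.182 and 0 CPM in flox and at 0.619, 0.750 and 0.313 CPM in cKO, and Wnt4 at 0.204 to 0.339 CPM in flox and 0.447 to 0.881 CPM in cKO. These low values rest on few reads, and neither gene was called. Wnt9a and Wnt11 were the steadiest, at 5.08 to 8.16 CPM and 3.54 to 6.78 CPM over all 6 hearts. Wnt2, Wnt2b, Wnt6 and Wnt7b were tested with overlapping groups, and Wnt1, Wnt7a, Wnt8b and Wnt16 had too few counts. Wnt7a had no counts in flox and 0.136, 0.102 and 0.268 CPM in cKO. Wnt3, Wnt3a, Wnt8a and Wnt10a were at 0 in every heart.

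Of the R-spondins, Rspo1 alone was tested, at 1.68, 1.27 and 2.71 CPM in flox and 4.47, 2.69 and 2.90 CPM in cKO, with overlap. Rspo2 had no counts in flox and 0.241, 0.102 and 0.223 CPM in cKO, Rspo3 was at or under 0.226 CPM, and Rspo4 was at 0.

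Among the feedback and transcription genes, Nkd2 was the one that changed. Its product binds Dishevelled inside the cell and dampens Wnt signalling. It was at 1.59, 2.02 and 1.496 CPM in flox and at 18.4, 20.1 and 41.6 CPM in cKO, with no overlap and the highest value in cKO replicate 3, as for Sfrp1 and Sfrp2. The fold was 15.6 (log2 3.97, SE 0.45, adjusted p = 0.0336, edgeR's quasi-likelihood test). Its paralog Nkd1 was at 1.19 to 1.92 CPM in flox and 1.56 to 2.31 CPM in cKO. Axin2, the feedback gene most used as a readout of beta-catenin activity, was at 4.06, 4.59 and 1.299 CPM in flox and at 6.02, 3.93 and 3.35 CPM in cKO, with overlap (adjusted p = 0.788, edgeR). Lef1 and Tcf7, nuclear partners of beta-catenin, did not exceed 0.546 and 1.04 CPM. Nkd2 lies on the minus strand at chr13:73818534-73847631, and a processed pseudogene, Gm8062, lies within it on the other strand.

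**Figure D2:**
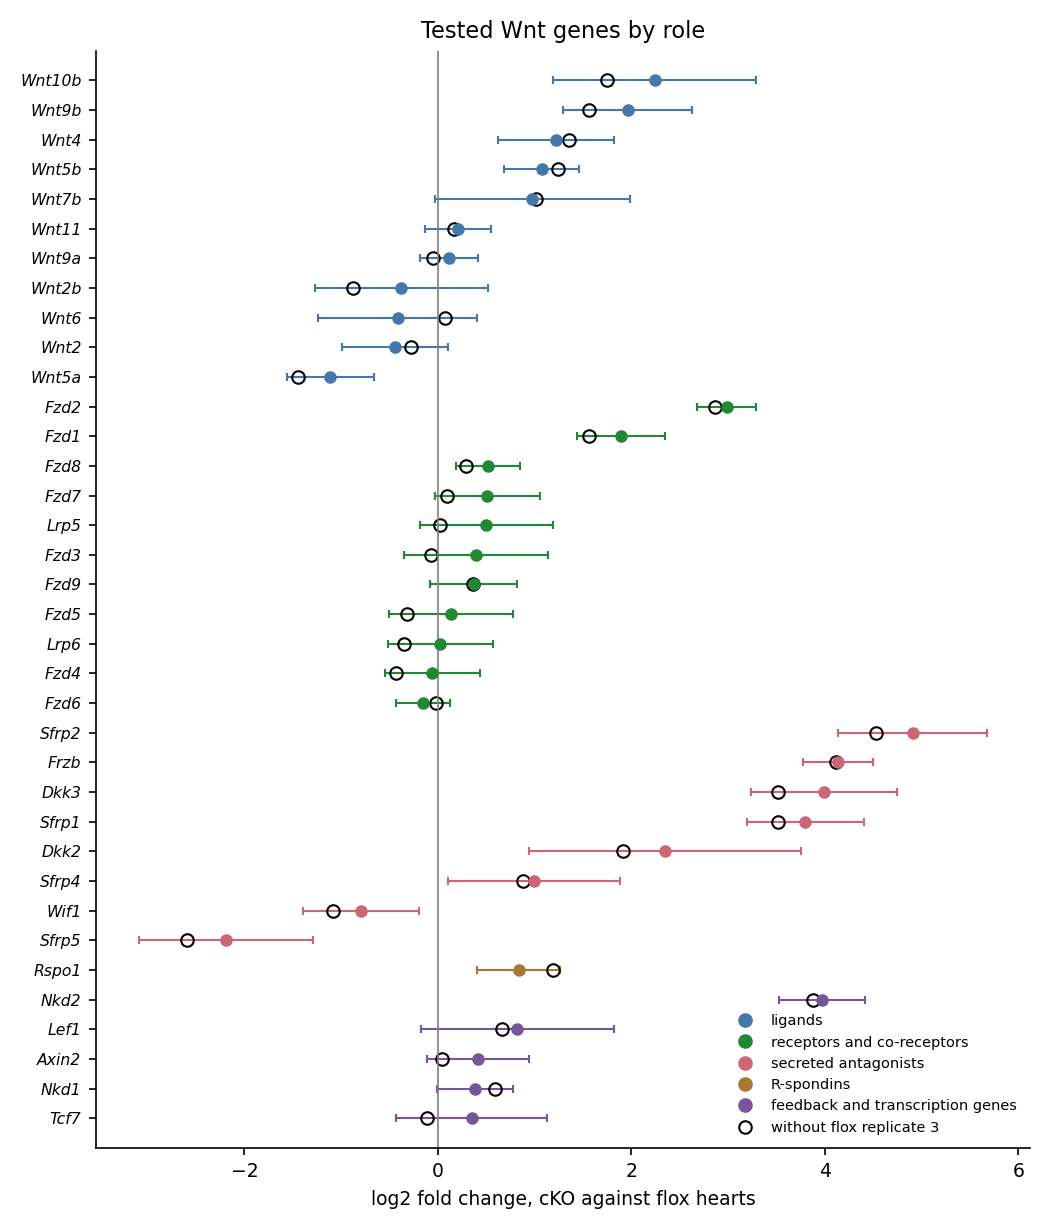
Log2 fold change of the 36 tested Wnt genes, cKO against flox hearts, grouped by role, with bars of 1 standard error and open circles for the fit without flox replicate 3. Sfrp2, Frzb, Dkk3, Sfrp1, Nkd2 and Fzd2 lie between 2.99 and 4.91 and stay on the same side without that library, while most receptors lie near 0.

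Over the 36 tested genes, 13 were higher in all cKO hearts than in any flox heart and none was lower, 36.1% against 14.9% of all genes higher and 11.2% lower, or 26.1% in either direction. These 13 were 5 antagonists (Frzb, Sfrp1, Sfrp2, Dkk3 and Dkk2), 4 ligands (Wnt4, Wnt5b, Wnt9b and Wnt10b), 3 receptors (Fzd1, Fzd2 and Fzd8) and Nkd2. An unadjusted p under 0.05 was reached by 11, or 30.6%, against 15.0% of all genes. The median log2 fold change of the 36 was 0.51, against 0.00 over all genes. Of the 36, 6 were over the filter level in all cKO libraries but not in all flox libraries, so their entry favoured higher values. Dkk2, Wnt9b and Wnt10b of the 13 were among these 6, so a part of the 36.1% entered through the group where it is high. The summaries above describe only the tested genes. Scaling to total counts moved the median of all genes to 0.54 and that of the Wnt genes to 0.94.

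Per kilobase of transcript, the order of the genes changed. Summed over the 10 antagonists, the level per kilobase was 7.78, 8.85 and 3.67 CPM in flox and 69.5, 78.6 and 168 CPM in cKO, while the 19 ligands summed to 7.44, 7.84 and 5.49 CPM in flox and to 7.09, 8.34 and 8.83 CPM in cKO. The antagonists thus stood at 1.05, 1.13 and 0.668 times the ligands in the flox hearts and at 9.80, 9.42 and 19.1 times in the cKO hearts, a description of RNA per length with no test. Nearly all of the antagonist sum in cKO came from Sfrp2, Sfrp1, Frzb and Dkk3. Dkk3 was placed among the antagonists by its symbol, and whether it acts as one was not tested. Of the other antagonists, Wif1 and Sfrp5 had lower means in cKO than in flox, Dkk2 and Sfrp4 had higher ones, and Dkk1 and Dkk4 were absent or nearly so. The 12 receptors and co-receptors summed to 43.1, 43.9 and 19.3 CPM in flox and to 54.9, 43.1 and 53.6 CPM in cKO, and overlapped. In flox the highest means per kilobase were those of Fzd4 at 9.73, Fzd6 at 7.06, Lrp6 at 6.50 and Lrp5 at 5.41 CPM. In cKO they were those of Sfrp2 at 36.5, Sfrp1 at 36.1, Frzb at 20.2 and Dkk3 at 12.1 CPM, ahead of Fzd4 at 9.35 and Fzd2 at 8.60 CPM. Sfrp2 and Sfrp1 in cKO do not differ beyond their spread, with SDs over the 3 hearts of 52.2 and 97.9 CPM before division by length.

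**Figure D3:**
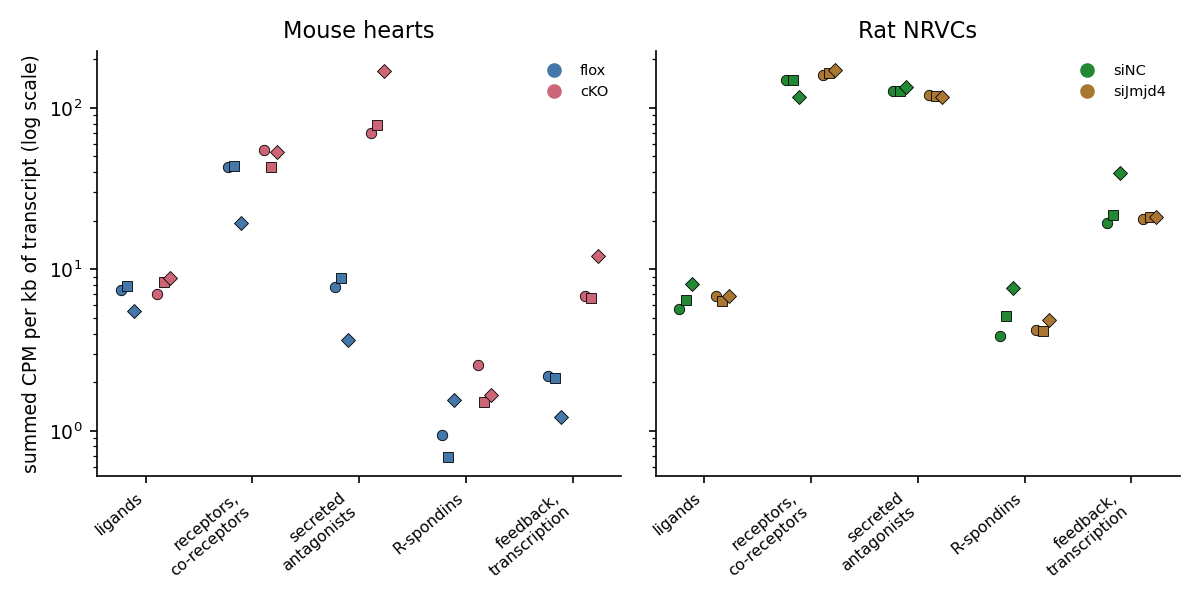
Summed level per kilobase of transcript (CPM per kb, log axis) of the Wnt genes of each role in every library, mouse hearts on the left and rat NRVCs on the right, with 1 symbol per replicate. In hearts the antagonists go from 3.67 to 8.85 in flox to 69.5 to 168 in cKO while the ligands overlap, and in NRVCs the antagonists are high in both groups.

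Promoter windows were searched for CTTTGA, the core of the TCF/LEF site, on both strands (its reverse complement is TCAAAG), with no other motif searched. RefSeq on GRCm38.p6 gave 41 windows, from 250 bases before to 50 after a start, for 34 of the 50 genes. The core was found in 6 windows (14.6%), of Frzb, Fzd1, Wnt5b, Wnt11, Lef1 and Dkk1, against 16.0% of all 32851 windows of that length. The windows of Nkd2 and Sfrp2 held none, and Fzd2, Sfrp1 and Dkk3 had no window. Frzb, Nkd2, Fzd1 and Sfrp2 are shown because they were called higher with or without flox replicate 3 and had a window. The matched stretches of Frzb and Fzd1 (chr2:80447474-80447503 and chr5:4758441-4758466, both minus strand) carry the core in capitals, and the whole windows of Nkd2 (chr13:73847582-73847881, minus strand) and Sfrp2 (chr3:83766071-83766370, plus strand) lack it. All run 5′ to 3′ on the gene's strand. The match begins 95 bases before the RefSeq start of Frzb, which lies inside the gene as GENCODE annotates it, and 242 bases before that of Fzd1.
Frzb: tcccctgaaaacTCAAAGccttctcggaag
Fzd1: cgcagcacTCAAAGtagcagtctgtg
Nkd2: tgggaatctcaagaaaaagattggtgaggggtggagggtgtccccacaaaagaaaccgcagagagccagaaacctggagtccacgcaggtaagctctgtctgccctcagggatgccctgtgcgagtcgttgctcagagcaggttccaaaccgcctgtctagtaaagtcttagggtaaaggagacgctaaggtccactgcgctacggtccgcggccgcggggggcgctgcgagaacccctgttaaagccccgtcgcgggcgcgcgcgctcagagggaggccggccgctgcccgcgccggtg
Sfrp2: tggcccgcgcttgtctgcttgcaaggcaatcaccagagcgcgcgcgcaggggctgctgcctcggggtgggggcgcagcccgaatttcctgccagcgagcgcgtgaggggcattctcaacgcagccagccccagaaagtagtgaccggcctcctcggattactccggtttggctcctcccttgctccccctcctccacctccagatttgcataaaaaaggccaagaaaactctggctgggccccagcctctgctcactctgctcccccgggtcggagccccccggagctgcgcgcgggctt
The core was thus no more frequent in the windows of the Wnt genes than in all windows, which says nothing of binding.

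Other pathway genes were taken from 5 lists. In hearts 3 of the 93 tested were called, all higher, against 0.508% of all genes, and 19 had an unadjusted p under 0.05, against 15.0% of all genes. As for every gene in the table, these calls were lost when any library but flox replicate 3 was left out, and with the replicate block. Sost encodes sclerostin, a secreted LRP antagonist outside the symbols chosen. Sost was at 0.814, 0.311 and 0.339 CPM in flox and at 7.16, 7.51 and 5.11 CPM in cKO (log2 fold change 3.74, SE 0.51, adjusted p = 0.0452 by edgeR's quasi-likelihood test). Sostdc1 of the same list went the other way at low levels. It was at 0.522, 1.06 and 0.339 CPM in flox and at 0.105, 0.0636 and 0 CPM in cKO (log2 fold change -3.48, adjusted p = 0.242, edgeR). Wisp2 and Wisp1, matricellular genes reported as beta-catenin targets, had log2 fold changes of 4.71 and 2.86 (adjusted p = 0.0255 and 0.0414, edgeR), with Wisp2 at 3.85 to 6.32 CPM in flox and 110 to 160 CPM in cKO. Of 21 tested reported targets, 2 were called, 14 had a fold change above 0, and the median log2 fold change was 0.72 (0.57 without flox replicate 3). Myc and Sox9 of the same list had 1.80 and 2.75 and were not called (adjusted p = 0.105 and 0.119, edgeR). Tnfrsf19 and Fgf9 were lower in all cKO hearts than in any flox heart, with -1.78 and -1.12, and were not called either (adjusted p = 0.128 and 0.196, edgeR). Without flox replicate 3, edgeR called 5 of the 21 targets higher and 1 lower, against 4.26% and 2.93% of all genes. Myc (1.53, adjusted p = 0.0219) and Sox9 (2.34, adjusted p = 0.0291) were among the 5, and the lower gene was Tbx3 (-1.23, adjusted p = 0.0223, edgeR).

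None of 29 intracellular genes of the beta-catenin branch and none of 25 of the planar polarity and calcium branch was called by edgeR. Nor was any of 7 for Wnt processing and release (0.508% of all genes). In that order, an unadjusted p under 0.05 was reached by 1, 1 and 3, against 15.0% of all genes. Of them the Wald test of DESeq2 called 1, 1 and 0 (9.66% of all genes), and limma voom 2, 4 and 3 (21.3%). Their medians were 0.16, 0.06 and 0.79 on the log2 scale, and -0.096, -0.19 and 0.43 without flox replicate 3, so that the sign of the first pair turned with that library. Without it, edgeR called none of the 29, 2 of the 25 and 1 of the 7, all lower (2.93% of all genes). These were Celsr2 (-2.51, adjusted p = 0.0235), Celsr3 (-2.26, adjusted p = 0.0390) and Trabd2b (-1.17, adjusted p = 0.0296, edgeR). Lgr6, an R-spondin receptor, was at 75.2, 83.5 and 18.8 CPM in flox and at 17.5, 11.9 and 21.2 CPM in cKO. It overlapped through flox replicate 3 alone (log2 fold change -1.81, adjusted p = 0.221), and without that library it was called lower (-2.23, adjusted p = 0.00967, edgeR).

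Markers of several cell types moved with the heart result. None of the 10 fibroblast markers was called in the full comparison by edgeR's quasi-likelihood test (0.508% of all genes). Of these markers, 5 passed with DESeq2's Wald test (9.66%) and 7 with limma voom (21.3%). For 6 the edgeR p before adjustment was below 0.05, as for 15.0% of all genes. Without flox replicate 3, edgeR called 3 (7.19% of all genes). The median log2 fold change of the 10 markers was 1.29. All cKO hearts were above any flox heart for 7 of the 10, and for 14.9% of all genes. They were unequal: Postn, of activated fibroblasts, had 4.95, Col1a1 2.46, Tcf21 1.16, Pdgfra 0.87, Dcn 0.65 and Dpt -0.26. The 10 macrophage markers summed to 413.5 to 864 CPM in flox and to 880 to 1226 CPM in cKO, and the 7 epicardial and mesothelial markers to 45.1 to 49.1 and 83.2 to 127 CPM. All 10 macrophage markers had a fold change above 0. EdgeR called none of them in the full comparison and 7 without flox replicate 3 (7.19% of all genes). DESeq2's Wald test called 2 (9.66%) and limma voom 9 (21.3%). For the 7 epicardial and mesothelial markers the counts were 0, 1, 1 and 5 in that order. The 4 atrial and valve markers summed to 95.0 to 184 CPM in flox and to 6044 to 16540 CPM in cKO, nearly all of it Nppa, which also rises in stressed ventricle. Myl4 and Myl7 of that list were at 1.16 to 4.18 and 0.547 to 4.32 CPM in flox and at 9.49 to 42.1 and 3.88 to 15.1 CPM in cKO, and Sln was too low to be tested. Besides Nppa, the marker called was Cnn1 of smooth muscle (log2 fold change 3.22, adjusted p = 0.0387, edgeR). The 10 smooth muscle and pericyte markers had a median of 0.06, or -0.47 without flox replicate 3, and Acta2 among them was lower in all cKO hearts (-1.298, adjusted p = 0.221, edgeR). The part of these cells in the Wnt result was not tested. In bulk tissue, more cells of a type and more RNA per cell cannot be told apart.

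In NRVCs no Wnt gene was called. The count was 0 of 38 tested by edgeR's quasi-likelihood test, against 0.00645% of all 15497 genes, with 3 (7.89%) at an unadjusted p under 0.05 against 8.71% of all genes. DESeq2's Wald test called 1, Lrp6 (1.08% of all genes), and limma voom 2, Fzd7 and Lrp6 (7.41%). Without siNC replicate 3 and siJmjd4 replicate 1, Fzd4, Fzd7 and Lrp6 were called higher and Sfrp1 lower (15.8% of all genes). The groups did not overlap for 10 genes with siJmjd4 higher and 5 with siJmjd4 lower, 39.5% together against 40.2% of all genes (22.4% higher and 17.8% lower). The count of Wnt genes is therefore near the background by each measure. The labels of these libraries rest on a target that did not pass the test as lower, with or without siNC replicate 3, as given above.

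Lrp6 had the smallest p among them. It was at 31.7, 26.9 and 12.9 CPM with siNC and at 49.0, 63.4 and 77.0 CPM with siJmjd4. The groups were apart and siNC replicate 3 was the lowest library. By edgeR's quasi-likelihood test this gave 1.41 on the log2 scale (SE 0.36, adjusted p = 0.379), or 1.11 without siNC replicate 3 (adjusted p = 0.0604). With each library's trend along transcript length removed it was 0.72.

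Several receptors shared that shape. Fzd7 was at 19.6, 18.4 and 3.89 CPM with siNC and at 26.4, 30.8 and 35.9 CPM with siJmjd4, Fzd5 at 8.52, 9.23 and 3.72 CPM against 12.1, 12.03 and 12.3 CPM, and Fzd1 at 278, 277 and 116 CPM against 309, 314 and 336 CPM. In all 3, siNC replicate 3 was far below the other controls, and edgeR called none. Their log2 fold changes of 1.15, 0.76 and 0.52 became 0.71, 0.45 and 0.20 without that library. Fzd7 was among the calls of limma voom. Fzd4 was at 70.2, 57.4 and 41.5 CPM against 66.4, 80.4 and 84.8 CPM, with overlap. Fzd2 ran the other way, at 149, 159 and 228 CPM with siNC and 147, 134 and 130 CPM with siJmjd4, with its highest value in siNC replicate 3 (log2 fold change -0.38, and -0.17 without that library). Lrp5 was steady at 113 to 141 CPM over the 6 libraries.

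Of the ligands, Wnt5a had the highest mean CPM in both groups, though per kilobase of transcript Wnt4 was above it with siNC. Wnt5a was at 17.5, 15.4 and 10.2 CPM with siNC and at 22.7, 20.5 and 23.3 CPM with siJmjd4, without overlap (log2 fold change 0.62, SE 0.24, adjusted p = 0.379, edgeR's quasi-likelihood test). With the length trend removed it was 0.06. Wnt9a was at 0.368, 0.602 and 0.170 CPM against 0.751, 1.10 and 0.961 CPM, and Wnt6 at 0.536, 1.53 and 1.59 CPM against 0.717, 0.510 and 0.683 CPM, both low. Wnt4 was at 5.77, 7.83 and 15.8 CPM with siNC and 6.37 to 6.57 CPM with siJmjd4. Wnt2b, Wnt5b, Wnt10b, Wnt11 and Wnt16 lay at or under 3.40 CPM, Wnt1, Wnt2, Wnt7b and Wnt8b had too few counts, and Wnt3, Wnt3a, Wnt7a, Wnt8a, Wnt9b and Wnt10a had none.

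The antagonists with high values in cKO hearts were expressed in both groups of cultures, and none was called. Dkk3 was at 209, 197 and 226 CPM with siNC and at 190, 211 and 197 CPM with siJmjd4, and Sfrp1 at 197, 199 and 237 CPM against 185, 155 and 172 CPM. Frzb was at 10.3, 11.0 and 9.80 CPM against 9.05, 9.04 and 8.28 CPM, and Sfrp2 at 8.10 to 22.5 CPM against 16.2 to 21.1 CPM. Sfrp1 and Frzb were a little lower in every siJmjd4 library, and Dkk3 and Sfrp2 overlapped, with log2 fold changes of -0.30 for Sfrp1, -0.24 for Frzb, -0.08 for Dkk3 and 0.15 for Sfrp2. Dkk2 was at 0.335, 0.247 and 0.227 CPM against 0.497, 1.34 and 0.529 CPM (log2 fold change 1.54, adjusted p = 0.379, edgeR). Dkk4, Wif1, Sfrp4 and Sfrp5 lay between 0.0837 and 6.45 CPM and overlapped, and Dkk1 had no counts.

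Nkd2 was at 58.4, 67.6 and 140 CPM with siNC and at 63.5, 65.1 and 64.0 CPM with siJmjd4, so that siNC replicate 3 alone set the groups apart in mean (log2 fold change -0.47, and 0.03 without that library). Nkd1 was at 11.6, 12.7 and 14.9 CPM against 9.28, 10.4 and 11.4 CPM, and Axin2 at 0.569, 0.618 and 0.378 CPM against 0.613, 1.18 and 1.09 CPM. Tcf7, Lef1, Rspo1, Rspo3 and Rspo4 were measured and not called, with Rspo1 the highest R-spondin at 5.46, 6.81 and 11.9 CPM against 5.49, 5.72 and 7.59 CPM, and Rspo2 was too low to be tested. Summed per kilobase, the antagonists were at 22.5, 19.5 and 16.6 times the ligands with siNC and at 17.5, 18.6 and 17.1 times with siJmjd4. Most of the antagonist sum came from Dkk3 and Sfrp1. With siNC their means were 62.7 and 48.2 CPM per kilobase, of 129.8 for all antagonists.

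**Figure D4:**
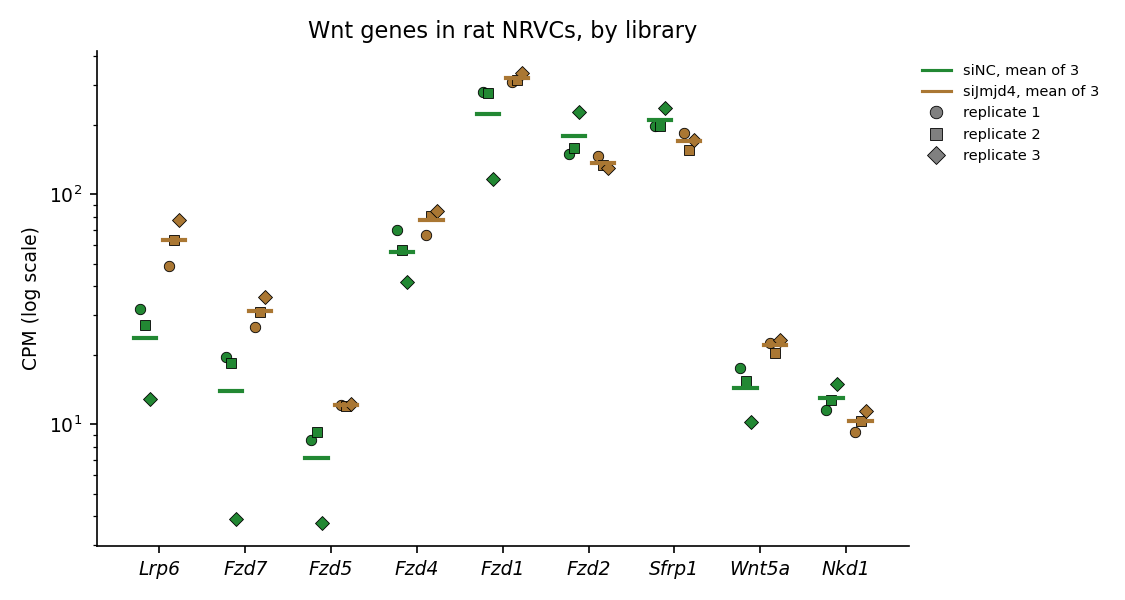
Level of 9 Wnt genes in each NRVC library (CPM, log axis), with siNC in green and siJmjd4 in brown, 1 symbol per replicate and a line at the mean of 3. Lrp6, Fzd7, Fzd5 and Wnt5a are higher in all siJmjd4 libraries, and siNC replicate 3 (diamond) is the lowest library for each of these and for Fzd4 and Fzd1.

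Of the pathway lists, none of 90 tested genes was called in NRVCs by edgeR's quasi-likelihood test (0.00645% of all genes). In that test 11 had an unadjusted p under 0.05, against 8.71% of all genes. DESeq2's Wald test called 2 of the 90 (1.08% of all genes) and limma voom 6 (7.41%). The smallest p values included Amer1 and Tnks, which act on the beta-catenin destruction complex, with log2 fold changes of 1.84 and 1.54, and Wisp1 with 1.32 (adjusted p = 0.379 for each, edgeR). Lgr4, a receptor of R-spondins, was at 32.3, 25.6 and 7.21 CPM with siNC and at 39.6, 48.9 and 50.3 CPM with siJmjd4. The siNC replicate 3 value was again the lowest of the 6, and the log2 fold change of 1.09 became 0.67 without it.

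The responses of the 2 systems were compared in 1 edgeR model of all 12 libraries, over 13482 genes named alike in both tables. That model uses 1 measure of spread per gene for both systems. The spread between NRVC libraries, which may be technical, thus also enters the SEs and p-values of the difference. The difference, heart log2 fold change minus NRVC log2 fold change, passed an adjusted p of 0.05 for 6 of 42 Wnt genes (14.3%, against 1.68% of all genes), all with the heart response higher. These were Frzb, Nkd2, Sfrp1, Sfrp2, Dkk3 and Fzd2, with differences of 4.38 (SE 0.36, adjusted p = 0.000234), 4.43 (SE 0.57, adjusted p = 0.00505), 4.09 (SE 0.61, adjusted p = 0.00771), 4.74 (SE 0.84, adjusted p = 0.0194), 4.06 (SE 0.76, adjusted p = 0.0244) and 3.36 (SE 0.37, adjusted p = 0.00141). Without flox replicate 3 and siNC replicate 3, 9 were called (12.8% of all genes). Between 4 and 7 were called when each library was left out in turn, and Frzb, Fzd2, Nkd2 and Sfrp1 passed in each such fit. Wnt5a, lower in cKO hearts and higher with siJmjd4, differed by -1.74 (adjusted p = 0.139), and by -2.09 without flox replicate 3 (adjusted p = 0.0115, edgeR). Fzd1 at 1.37 and Lrp6 at -1.39 did not pass (adjusted p = 0.293 and 0.361, edgeR). Species, age, tissue and method of targeting differ between the systems and cannot be told apart here.

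**Figure D5:**
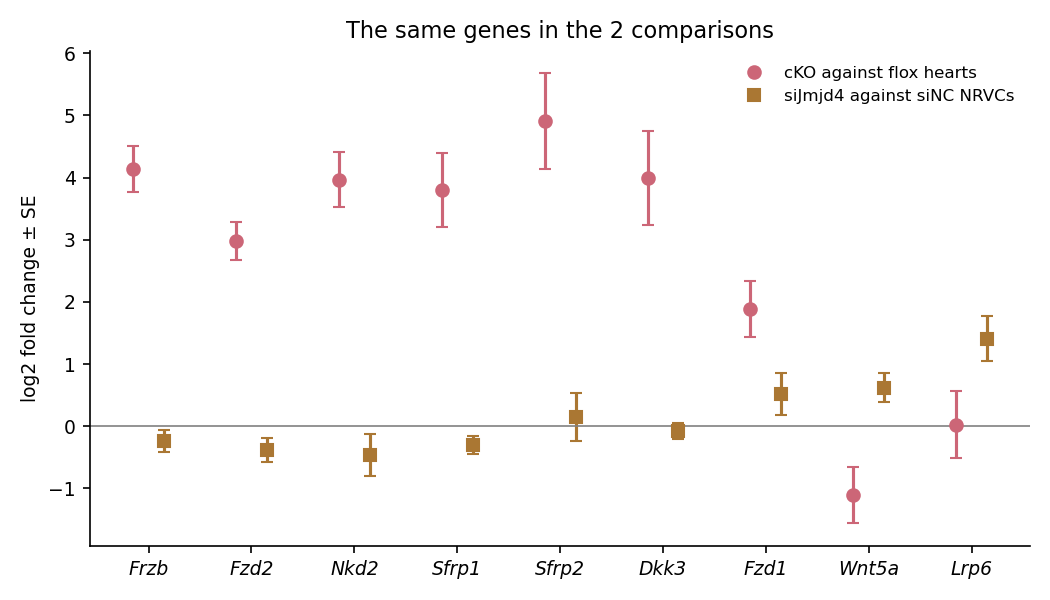
Log2 fold change with 1 standard error for 9 Wnt genes in cKO against flox hearts (circles) and in siJmjd4 against siNC NRVCs (squares). Frzb, Fzd2, Nkd2, Sfrp1, Sfrp2 and Dkk3 lie between 2.99 and 4.91 in hearts and between -0.47 and 0.15 in NRVCs.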

How the data were processed

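Total RNA was extracted with TRIzol and sequenced on the Illumina platform, per the labels' protocols. The submitters' processing notes list edgeR 3.20.9, StringTie 1.3.4 and HISAT2 2.1.0 and the genome builds rn6 and mm10, without saying what each was used for. The authors deposited 1 table of counts per species, with raw whole numbers for each symbol. Low values pile up at multiples of 4: 32.1% to 39.1% of values from 1 to 20 divide by 4, where an even spread gives 25%. Whether reads were counted more than once could not be settled, so a printed count may overstate the reads behind it. No source used here gives the annotation or strand setting of the counting.

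Here, each system was filtered with filterByExpr, scaled by TMM and fitted on its own 6 libraries with edgeR's robust quasi-likelihood test (edgeR 4.0.16, R 4.3.3, group as the only term, two-sided). Adjusted p-values are Benjamini-Hochberg over all genes tested, called under 0.05. CPM values use the TMM-scaled totals, and standard errors come from the F statistic. An exact permutation test of 3 libraries against 3 has 0.1 as its smallest p and was not run. The libraries held 57174654 to 82187009 counts, and 3.42 CPM of Frzb in flox replicate 1 rest on 269 counts.

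Lengths, positions and overlapping genes are from GENCODE M21 on GRCm38, and rat genes were given the length of their mouse namesake. Alternatives were DESeq2 size factors, total counts, DESeq2's Wald test (1.42.0), limma voom with quality weights (3.58.1), 2 other filters (none, and a mean of at least 5 CPM), a length offset (span 0.3), the replicate block and libraries left out. Counts divided by 4 were added after seeing the data. The code was tested on simulated counts. The Wnt genes, the 5 pathway lists and the marker lists were chosen with earlier results of these data known. Library values are given for the genes called, for the 12 with the smallest p per comparison and for the most abundant of each role, and the 4 smallest p per pathway list were eligible to be named, of which a part is given. Other markers named beside the results were picked after their values were seen. The lists of endothelial, endocardial, smooth muscle and pericyte, lymphocyte, Schwann and neuronal and adipocyte markers gave summed levels of 1697 to 1919, 24.9 to 63.3, 1028 to 1810, 2.48 to 4.02, 6.61 to 8.25 and 0 to 0.242 CPM in flox and 1434 to 1664, 75.1 to 95.9, 1016 to 1236, 7.80 to 8.67, 4.00 to 8.55 and 0 to 1.39 CPM in cKO.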

Additional observations from a re-analysis of the deposited data

Results flagged for a closer look

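The responses of 6 Wnt genes differed between cKO hearts and siJmjd4 NRVCs by the test of the difference itself. On the log2 scale, hearts minus NRVCs, the differences were 4.38 for Frzb, 3.36 for Fzd2, 4.43 for Nkd2, 4.09 for Sfrp1, 4.74 for Sfrp2 and 4.06 for Dkk3. In each of these genes the lowest cKO heart was above the highest flox heart. In NRVCs Sfrp2, Dkk3 and Nkd2 overlapped between the groups, while Frzb, Fzd2 and Sfrp1 were lower in every siJmjd4 library than in any siNC library without passing the test. Jmjd4 did not pass the test as lower in the libraries labelled siJmjd4, with or without siNC replicate 3, and the part of this in the difference was not tested.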

How the results depend on the processing

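The number of Wnt genes called in hearts, 3 in the reported fit, was 0 with total counts alone (lowest adjusted p 0.0561), 8 with DESeq2's Wald test, 12 with limma voom (10 higher, 2 lower), 5 without a filter, 8 with the length offset (7 higher, 1 lower), 5 with counts divided by 4, 9 without flox replicate 3 and cKO replicate 2 together, and 0 to 8 when each library was left out. The share of all genes called moved likewise, to 0.111%, 9.66%, 21.3%, 0.519%, 8.44%, 1.03% and 19.1% in that order, and to 0 genes without each library but flox replicate 3. In NRVCs the count of 0 became 1 with the Wald test, 2 with voom and 4 without siNC replicate 3 and siJmjd4 replicate 1 (3 higher, 1 lower, against 15.8% of all genes), and stayed 0 with each library left out. The count for the pathway lists, 3 over both systems, was 11 without flox replicate 3 and siNC replicate 3 and 1 with total counts. In hearts alone it was 13 with the Wald test and 28 with voom, and 0 without each library but flox replicate 3 and with the replicate block. In NRVCs the sign of the log2 fold change turned for Fzd4 with the length offset (-0.093), and for Dkk3 with total counts (0.023) and voom (0.011). It turned for Nkd2 without siNC replicate 3 (0.029, in a range of -0.69 to 0.029 over the libraries left out) and without it and siJmjd4 replicate 1 (0.014), and for Sfrp2 without siNC replicate 3 (-0.18, in a range of -0.18 to 0.41), without it and siJmjd4 replicate 1 (-0.30) and with voom (-0.25). Apart from the changes that fewer libraries or genes bring by construction, the cause was not tested.

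Replicate numbers showed no steady pairing of the samples: the correlations of same-numbered libraries were 0.36, -0.48 and -0.33 in hearts and -0.14, -0.02 and -0.15 in NRVCs. These are correlations of deviations from means of only 3 libraries, and they cannot exclude pairing. The largest in hearts, 0.55, was between flox replicate 3 and cKO replicate 2. With the replicate block, 0 Wnt genes were called in hearts (9 at an unadjusted p under 0.05), 0 in NRVCs (1) and 0 for the difference between systems (10).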
